A study of Caenorhabditis elegans with 5 samples.

Results

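Chromosome V, the longest chromosome of *Caenorhabditis elegans*, carried 1422 of the 8092 PHA-4::GFP regions of the 3 lists that the authors deposited. They were chosen by position alone, as every combined region on V (1355 of 7745) plus the replicate 1 regions (15) and replicate 2 regions (52) on V that shared no base pair with a combined region. The regions come from chromatin immunoprecipitation and sequencing (ChIP-seq) with a goat anti-eGFP antibody on L2 larvae, the second larval stage, of strain OP37. These hermaphrodites have the genotype unc-119(ed3) III; wgIs37 and were grown at 20 °C. Their transgene, present in every library, encodes pha-4::TY1::EGFP::3xFLAG together with unc-119(+) and was introduced by bombardment, so the values describe a tagged PHA-4 made from an added gene copy in whole larvae. Of the 5 libraries, 3 are immunoprecipitations (1 of replicate 1 and 2 of replicate 2) and 2 are inputs of replicate 1. The labels say neither whether replicates were separate cultures nor which input served as control for which list. The p-values cover only counting error within these lists, with regions taken as independent, and no spread between cultures. The lists give positions and q-values from the peak caller PeakSeq but no read counts, so depth is unknown. A q-value, lower for stronger evidence of enrichment, does not measure how much protein was bound.

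PHA-4 is the FoxA factor that gives cells of the pharynx, the worm's feeding organ, their identity, and it also acts in the gut and other endodermal tissue. FoxA proteins bind DNA through a forkhead domain and can engage closed chromatin, and target genes of PHA-4 switch on at different times of development. Autosomes of *C. elegans* have a central part with little recombination, where many conserved and essential genes lie, and arms that recombine more and are richer in repeats. Chromosome V is known for large families of chemoreceptor genes. All positions are on WormBase WS190. Neither gene content nor sequence of the regions was analysed here, so regions are named by position.

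The most prominent feature of V was a crowded centre between sparse arms. The combined list held 64.8 regions per Mb on V, covering 2.84% of its 20899447 bp, against 68.5 to 78.7 per Mb and 2.98% to 3.88% on II, III, IV and X. In fixed bins of 1 Mb counted from the left end, V held a median of 55.5 combined regions over 20 whole bins, with a lowest count of 30 and a highest of 111. The 3 fullest bins were neighbours. Bin 11, from 10000001 to 11000000, held 111 combined regions, 67 of replicate 1 and 80 of replicate 2. Bin 12 held 105, 64 and 71 in the same order of lists, and bin 13 held 103, 65 and 61. The next were bin 10 with 92, 49 and 52 and bin 9 with 90, 48 and 67. These 5 bins form an unbroken stretch across the middle of the chromosome.

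The sparsest bins lay in both arms. Bin 4, from 3000001 to 4000000, held 30 combined, 12 replicate 1 and 20 replicate 2 regions. On the right, bin 18 held 34, 8 and 26, bin 19 held 38, 22 and 27, and bin 20 held 38, 14 and 18. Bin 3, on the left, held 43, 21 and 38. Replicate 1 thus ranged from 8 to 67 regions per bin and replicate 2 from 18 to 80, and in each list the lowest bin was in an arm and the highest was bin 11. Over the 20 bins, counts of the replicate lists had a Pearson's r of 0.940 and a Spearman's rho of 0.937. The bins lie on 1 chromosome and may share a control library, so this is a description only.

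The rise toward the centre was not smooth. On the left, the count went from 45 in bin 5 to 82 in bin 6, then to 73 in bin 7 and down to 56 in bin 8 before it reached 90 in bin 9. Replicate 1 (44, 43, 28 and 48 regions in bins 6 to 9) and replicate 2 (51, 54, 42 and 67) both had their low at bin 8. On the right, the count fell from 103 in bin 13 to 85, 68, 54, 54 and 34 in bins 14 to 18. With edges placed after these counts were seen, bins 6 to 15 averaged 86.5 combined regions, bins 1 to 5 averaged 45.4 and bins 16 to 20 averaged 43.6. The last, incomplete bin held 45. The centre thus began with a step on the left, was interrupted at bin 8, and ended with a slope over several bins on the right.

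**Figure D1:**
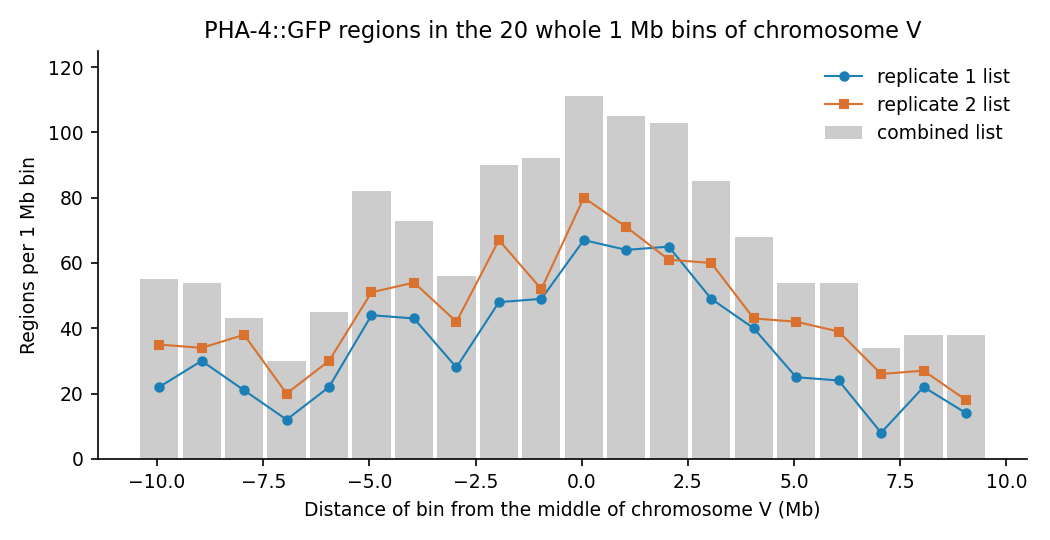
Regions per 1 Mb bin (vertical axis) against the distance of the bin from the middle of chromosome V in Mb (horizontal axis), for the combined list (bars) and the replicate lists (points joined by lines); the incomplete last bin is left out. Counts peak at 111, 67 and 80 in the bin at the middle and are lowest, at 30, 8 and 18, in the arms.

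Set against II, III, IV and X, V differed by its outer parts rather than by its middle part. Chromosome I was not among the comparison chromosomes and counts only in values over all chromosomes. Each chromosome was divided into 3 equal parts by the midpoint of each region; on V the middle part ran from 6966482 to 13932965. The middle part of V held 643 regions, or 92.3 per Mb (95% exact Poisson interval 85.3 to 99.7), and the other middle parts held 93.4 per Mb on II, 90.2 on III, 86.8 on IV and 82.8 on X. Against the 4 chromosomes together the ratio was 1.05 (95% exact interval 0.958 to 1.15, exact binomial p = 0.298, adjusted p = 0.323). A higher or lower density of the middle part of V than on these 4 was thus not detected, within that interval. Over all chromosomes, with V and I included, middle parts held 97.4 regions per Mb, and V was not tested against I.

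The outer parts of V were sparser than those of II, III, IV and X. They held 51.1 regions per Mb, against 66.5 over II, III, IV and X, a ratio of 0.768 (95% exact interval 0.707 to 0.834, exact binomial p = 1.26e-10, adjusted p = 7.53e-10). Each of these 4 was denser there than V: II with 59.1 per Mb (adjusted exact p = 0.00935), IV with 59.4 (0.00654), III with 70.7 (5.7e-09) and X with 76.7 (1.65e-15). In the replicate lists the ratio to the 4 chromosomes was 0.708 in replicate 1 and 0.747 in replicate 2. Regions that lie close together are not independent, so these p-values are too small. With regions within 5000 bp of each other merged and counted once, the ratio was 0.862 (adjusted exact p = 0.0162), and V no longer differed from II (adjusted exact p = 0.219) or IV (0.972). The density tests were added after the counts were known.

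**Figure D2:**
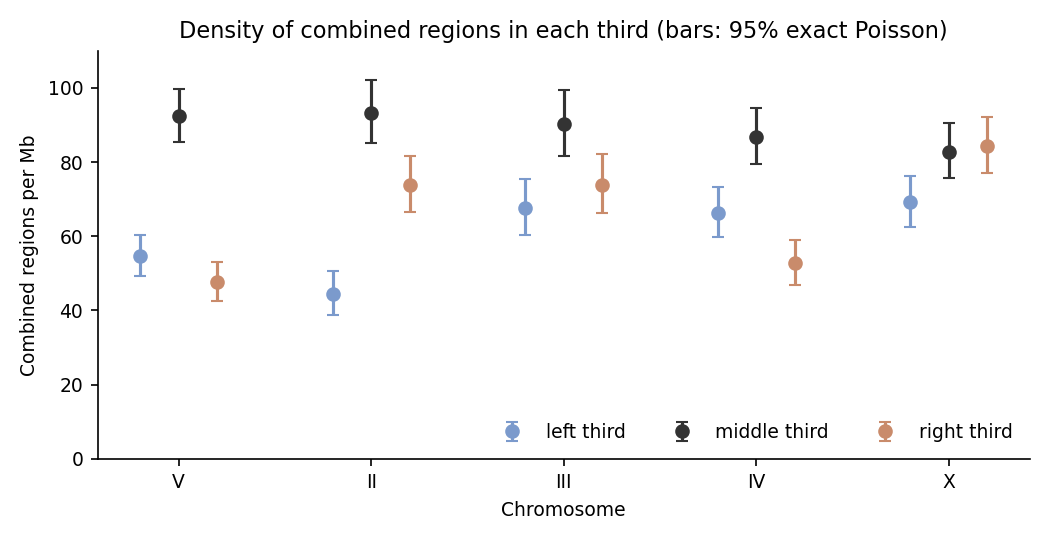
Combined regions per Mb (vertical axis) in the left, middle and right part of V, II, III, IV and X (horizontal axis); bars are 95% exact Poisson intervals, which cover counting error only. The middle parts lie between 82.8 and 93.4 on these 5 chromosomes, while the outer parts of V lie at 54.5 and 47.7, the left part of II at 44.4 and the right part of IV at 52.7.

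As a share of its own regions, the middle part held 47.5% on V (643 of 1355, 95% exact interval 44.8 to 50.2), beside 42.0% over all 7745 combined regions. The share was 39.8% over II, III, IV and X, a difference of 7.65 percentage points (Fisher's exact test, p = 5.54e-07, adjusted p = 1.66e-06). This contrast was known from the same lists before it was tested, so the p-values here are not independent support for it. V exceeded X by 12.4 points (adjusted exact p = 1.69e-10), III by 8.51 (6.02e-05) and IV by 5.25 (0.0114), whereas the 3.31 points above II did not pass the test (0.110). The call against IV was lost with a middle part of 50% of the length (2.59 points, adjusted exact p = 0.173) and in replicate 2 (4.11 points, 0.107). Among the 50% of combined regions with the lowest q, V passed against II (6.00 points, adjusted exact p = 0.0459). In replicate 1 the middle part held 50.7% of the regions on V against 40.5% on II, III, IV and X, and in replicate 2 46.7% against 40.3%. Merging regions within 5000 bp ended the call, at 40.8% on V against 37.9% (adjusted exact p = 0.222); merging counts each crowded stretch once. Counts per bin had a coefficient of variation of 38.9% on V, 36.3% on II, 31.5% on IV, 22.7% on III and 17.9% on X. In replicate 2 it was 38.6% on both V and II.

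Both outer parts of V were sparser than its middle part. They reach beyond the sparse arms: the left part takes in bin 6 (82 regions) and most of bin 7 (73), and the right part takes in bin 15 (68). The left part held 380 regions and the right part 332, which were not told apart (exact binomial p = 0.0781, adjusted p = 0.0918). Single outer parts of other chromosomes also had low densities: the left part of II held 44.4 regions per Mb (226 regions), less than either outer part of V, and the right part of IV held 52.7 (307 regions). The opposite parts of these held 73.7 and 66.2 per Mb.

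The share of regions in the centre of V was also lowest among those with the highest q. All combined regions were ranked by q and split into 4 groups of like size. In the group with the lowest q, 52.6% of the 304 regions on V were in the middle part (95% exact interval 46.9 to 58.4). The next groups had 52.3% of 354 and 47.7% of 352. In the group with the highest q, 37.7% of 345 were in the middle part (32.5 to 43.0), so the intervals of the first and last group on V did not overlap. The first and last group had 46.0% and 38.4% on II, 38.1% and 32.5% on III, 41.0% and 40.3% on IV, and 36.8% and 35.2% on X. Neither this trend nor its difference between chromosomes was tested. At the strongest end of V the share did not keep rising. It was 46% (23 regions) among the 50 regions of V with the lowest q, 58% among the first 100 and 52% among the first 200. Median scores, the −log10 of the combined q, were 5.72 in the middle part of V, 4.61 in the left and 4.37 in the right.

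**Figure D3:**
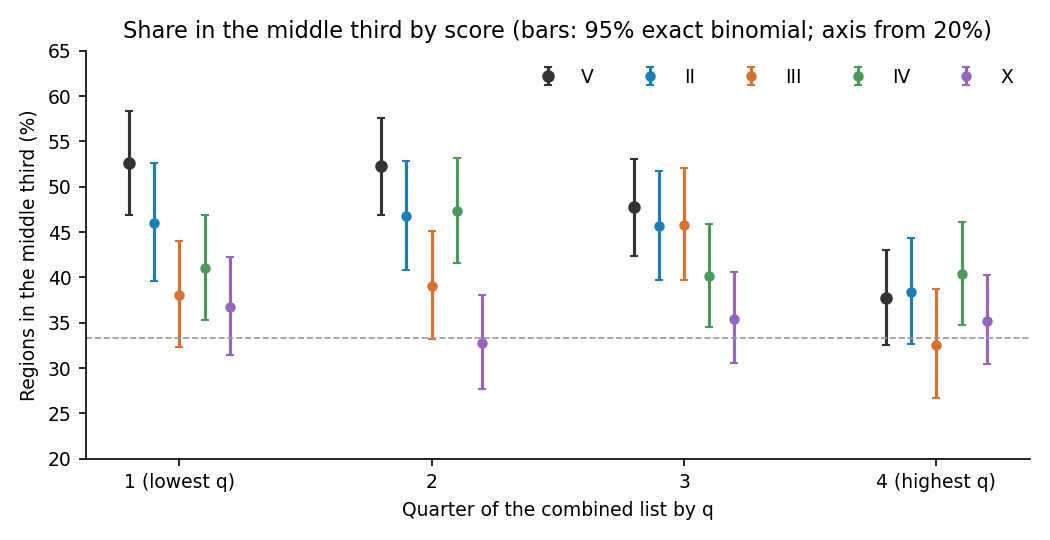
Share of combined regions in the middle part (vertical axis, percent, starting at 20%) by score group, from the lowest to the highest q of the combined list (horizontal axis), for 5 chromosomes; bars are 95% exact binomial intervals and the dashed line is the share of the length. V falls from 52.6% to 37.7%, and the interval of its last group includes the dashed line.

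Spacing restates the contrast within V, since gaps are shorter and neighbours nearer where regions are dense. The middle part also had the shortest median gap on II (5067 bp), III (6066.5 bp) and X (5016 bp). On IV the left part did, with 4804 bp against 5594 bp in the middle. Neighbouring combined regions were separated by a median of 6537 bp (interquartile range 1508.75 to 19646.5), and the median was 4423 bp in the middle part, 8658.5 bp in the left and 10558.5 bp in the right. Gaps of 50000 bp or more numbered 13 in the middle part, 35 in the left and 45 in the right. No gap on V was under 200 bp, and the shortest gaps of the replicate lists on V were 204 and 209 bp. Of the gaps on V, 403 of 1354 (29.8%) were 2000 bp or less, beside 30.1% over all chromosomes. The share was 28.4% on II, III, IV and X, and the difference did not pass (Fisher's exact test, p = 0.323, adjusted p = 0.323); in replicate 1 the shares were 23.1% and 19.5% (adjusted exact p = 0.0644). Of the 1354 gaps on V, 17 were 100000 bp or more, beside 51 of 7739 over all chromosomes. There were 7 of 1075 on II, 5 of 1062 on III, 15 of 1198 on IV and 4 of 1394 on X. The shares on V and IV were thus alike.

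**Figure D4:**
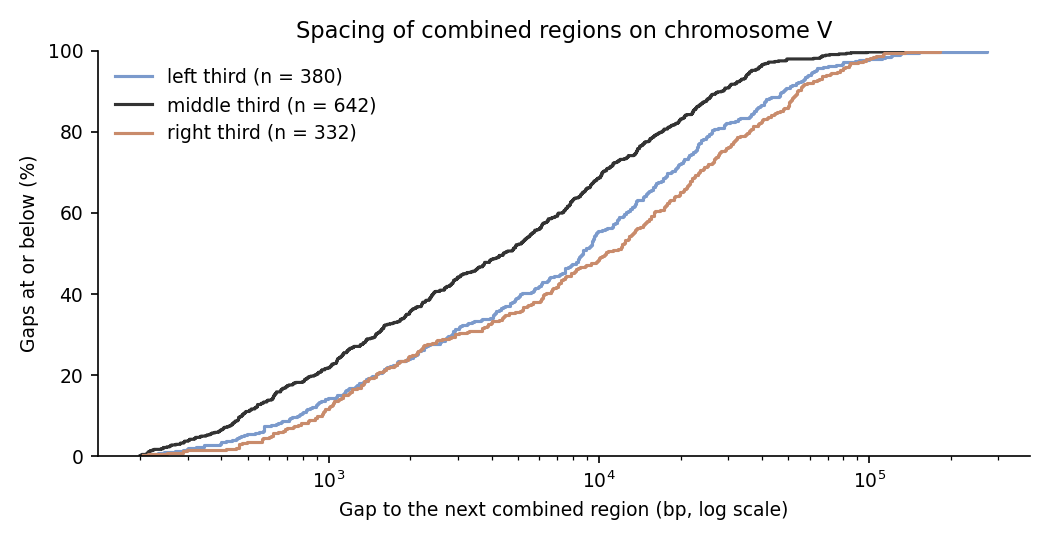
Cumulative share of gaps (vertical axis, percent) by length of the gap to the next combined region in bp (horizontal axis, log scale) in the left, middle and right part of V. The curve of the middle part, with a median of 4423 bp, lies to the left of those of the outer parts, with medians of 8658.5 and 10558.5 bp.

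The longest interval without a combined region ran from 2327447 to 2600553 and measured 273107 bp. It held 0 regions of either replicate list. Intervals of 183117 bp (17363820 to 17546936) and 152409 bp (2875690 to 3028098) followed, each touched by 1 replicate 2 region and by 0 of replicate 1. The fourth, of 148437 bp from 7237577 to 7386013, belongs to bin 8 and held 0 replicate regions. It lies inside the middle part and in the bin where the rise toward the centre is broken. An interval of 135635 bp, from 19217356 to 19352990, was the next and held 0 replicate regions.

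The most isolated regions lay in the outer parts. The nearest neighbour lay within 2000 bp for 361 of 643 regions of the middle part (56.1%) and for 287 of 712 of the outer parts (40.3%). Over 50 kb from any other were 16 regions, of which 0 were in the middle part. The most isolated region present in both replicate lists was 3315332 to 3315791, with 119849 bp free on its left and 75194 bp on its right. Its combined q was 7.33e-13, and replicates 1 and 2 gave 3.99e-07 and 3.81e-07. A stronger one, 16965408 to 16966018, had 54224 bp free on the left and 79901 bp on the right and a combined q of 3.91e-24. They measure 460 and 611 bp, against a median width of 360 bp on V. These were chosen after their values were seen.

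Dense stretches were defined as 5 or more combined regions in which each gap to the next was 2000 bp or less. V had 13 of them, holding 77 regions (5.68% of its regions), and II, III, IV and X had 8, 5, 15 and 15, holding 3.90%, 2.63%, 7.34% and 5.73% of their regions. Of the 13 on V, 10 lay in the middle part, 1 in the left and 2 in the right. Middle parts held 5 of 8 on II, 3 of 5 on III, 6 of 15 on IV and 7 of 15 on X. Placing of stretches is not independent of density and was not tested. The number depends on the limit for the gap, with 1 stretch at 1000 bp and 20 at 3000 bp. Applied to single lists, the rule found 6 in replicate 1 and 2 in replicate 2.

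The stretch with most regions was in the right arm, which is sparse otherwise. It ran from 20407000 to 20420496 and held 11 combined regions in 13497 bp, none over 674 bp wide, with 5 replicate 1 and 8 replicate 2 regions. Its lowest q was 2.10e-40, at 20414126 to 20414630, and 4 of the 11 regions were present in both replicate lists. No other stretch on V exceeded 7 regions.

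In the middle part, the stretch at 11603929 to 11610826 had 7 combined regions in 6898 bp, 7 of replicate 1 and 4 of replicate 2. Its lowest q was 9.01e-21. Stretches of 6 regions lay at 8013884 to 8022185, 12296881 to 12304055 and 12876771 to 12882434 in the middle part and, in the right part, at 14496649 to 14505318. That at 8013884 held 6 regions in replicate 2 and 2 in replicate 1, while that at 12876771 held 1 and 2 and was the weakest of the 4, with a lowest q of 1.97e-10. Equal numbers of combined regions thus went with unequal support in the replicate lists.

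The other 7 stretches had 5 regions each. Regions covered most, 64.6% of 8265 bp, at 9073557 to 9081821, which held 2 regions of 1000 bp or more and 4 regions in each replicate list. Its best region, at 9074321 to 9076928, is among the strongest of the chromosome. Further stretches of 5 in the middle part were at 12184385 to 12191381 (lowest q 5.92e-37), 10325947 to 10332638 (1.09e-14) and 11818099 to 11824429 (4.73e-29). At 10325947 all 5 combined regions were present in both replicate lists, and this was the case in no other stretch on V. The 3 shortest stretches of 5, named outside the rule after their values were seen, spanned 6279 bp (10713943 to 10720221), 6114 bp (13574926 to 13581039) and 4659 bp (4798399 to 4803057). The last, the 1 stretch of the left part, had a lowest q of 4.16e-05, 4 replicate 1 regions and 0 of replicate 2.

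Most regions on V were narrow. Widths had a median of 360 bp (interquartile range 259 to 504), with 386 bp in the middle part, 348.5 bp in the left and 327 bp in the right. Regions under 100 bp numbered 89, or 6.57%, beside 6.71% over all chromosomes. Of these 89, 0 were present in both replicate lists, as against 1 of 520 over all chromosomes. Presence in both lists went up with width on V: 12 of 226 regions from 100 to under 250 bp (5.31%), 291 of 693 from 250 to under 500 bp (42.0%), 188 of 285 from 500 to under 1000 bp (66.0%) and 55 of 62 of 1000 bp or more (88.7%). On II the same classes had 4.83%, 41.8%, 65.5% and 86.2%. Median q fell over the same classes, from 0.00293 under 100 bp to 1.82e-21 at 1000 bp or more. Of the regions from 500 to under 1000 bp, 60.0% were in the middle part, against 37.1% of those under 100 bp.

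Broad regions of 1000 bp or more made up 4.58% of the combined regions on V (62 of 1355), beside 4.89% over all chromosomes. Their share was 5.66% over II, III, IV and X, a difference that did not pass (Fisher's exact test, p = 0.134, adjusted p = 0.201). Against X alone, with 7.10%, it passed (adjusted exact p = 0.0225), but not within replicate 1 (adjusted exact p = 0.262) or replicate 2 (0.281). Within V, 36 broad regions were in the middle part (5.60%), 20 in the left and 6 in the right, and the middle did not pass against the outer parts (exact p = 0.0918, adjusted p = 0.0918). With a limit of 500 bp, the middle part had 32.2% and the outer parts 19.7% (adjusted exact p = 4.52e-07). The direction at 1000 bp turned in the replicate lists, with 5.15% in the middle against 6.96% outside in replicate 1 and 3.68% against 4.03% in replicate 2. Without the block of replicate regions at 20740660 to 20774524, these were 5.15% against 5.40% and 3.68% against 3.05%.

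The widest region, at 723749 to 728331 near the left end, measured 4583 bp. It had a combined q of 3.30e-56 and matched a replicate 1 region of 4582 bp (q 3.21e-40), whereas replicate 2 had 2 regions there, the better with q 7.78e-07. The next, 6220807 to 6225362 (4556 bp) and 6225685 to 6230143 (4459 bp), were separated by 322 bp. Replicate 1 divided them further, with 3 regions within the first and 2 within the second. Regions of 3597 bp at 14685278 to 14688874 and 3146 bp at 13787185 to 13790330 followed. The former was weak for its width, with q 1.53e-12 and 413 bp in replicate 1 against 4213 bp in replicate 2. Among these 5, chosen for their width, the lists thus placed the edges differently. In other strong regions widths were close, such as 595, 585 and 530 bp in the combined, replicate 1 and replicate 2 lists at 6240652 to 6241246.

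On support by replicates V stood slightly below II, III, IV and X, but near the level over all chromosomes, which include I. On V, 546 combined regions had a partner in each replicate list (40.3%, 95% exact interval 37.7 to 43.0), beside 41.2% over all chromosomes. Replicate 1 alone supported 158, replicate 2 alone 322, and 329 (24.3%, beside 25.7% over all chromosomes) overlapped neither. Over II, III, IV and X 43.4% overlapped both, and the lower share on V did not pass after adjustment (Fisher's exact test, p = 0.0429, adjusted p = 0.0859). The single chromosomes had 41.9% on II, 45.3% on III, 43.9% on IV and 42.7% on X. Among the 50% of combined regions with the lowest q the lower share on V did pass, at 79.0% against 83.9% (adjusted exact p = 0.00977). It also passed with a reciprocal overlap of 50%, at 34.8% against 38.5% (adjusted exact p = 0.0287). Support was more frequent in the centre of V, at 44.3% (285 of 643) against 36.7% (261 of 712) in the outer parts (Fisher's exact test, p = 0.00466, adjusted p = 0.0140). Among the 50% with the lowest q these shares were 79.1% and 78.9% (adjusted exact p = 1). Over II, III, IV and X, 44.6% of the regions in middle parts and 42.6% of those in outer parts overlapped both lists. Over all chromosomes the shares were 43.2% and 39.7%. The middle part of V was thus near the level of other middle parts. By bin, the share on V went from 20.6% in bin 18 to 48.6% in bin 11.

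The 20 strongest combined regions on V that overlapped both replicate lists stood at places 3 to 149 of the whole combined list. Of these 20, 10 lay in the middle part, 6 in the left and 4 in the right. Widths ran from 448 to 4583 bp with a median of 1481 bp. A neighbour within 2000 bp was found for 16 of them (80.0%), against 47.8% of all combined regions on V. The combined list is made from both replicates, so its q-values are not independent of theirs.

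**Figure D5:**
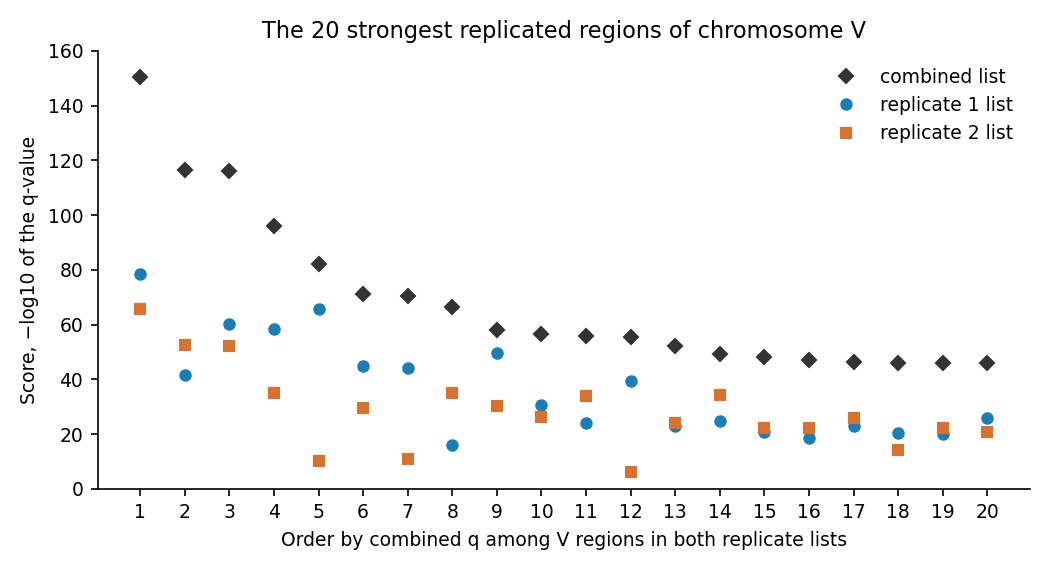
Score, the −log10 of the q-value (vertical axis), in the combined, replicate 1 and replicate 2 lists for the 20 strongest regions on V present in both replicate lists, ordered by combined q (horizontal axis). Combined scores are above both replicate scores for all 20, and replicate scores differ most at orders 5, 7 and 12.

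The best region, 6357861 to 6360581, had a combined q of 4.64e-151, with 3.14e-79 and 2.03e-66 in replicates 1 and 2. Next came 6225685 to 6230143, with 5.18e-117, 2.37e-42 and 2.25e-53, and 18557652 to 18560619, with 1.16e-116, 6.76e-61 and 8.45e-53. None of the leading 3 was in the middle part, and all of them were between places 4 and 33 of each replicate list. The region 12364713 to 12366641, the strongest of the middle part, had q 1.11e-96, 3.23e-59 and 1.46e-35.

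A few strong regions had a far lower q in 1 replicate list than in the other. At 20272127 to 20274574 the combined q was 5.10e-83 and the replicate 1 q 2.54e-66 (place 7), while the better of 2 replicate 2 regions had q 6.95e-11 (place 777). The region 13853039 to 13854693 had q 3.75e-71, with 5.91e-45 (place 26) in replicate 1 and 1.18e-11 (place 686) in replicate 2. In the widest region, at 723749, these places were 36 and 1672. All 3 were stronger in replicate 1. The opposite case was 12869910 to 12871216, with a combined q of 5.01e-67 and a better place (42, q 1.46e-35) in replicate 2 than in replicate 1 (317, q 1.49e-16). In each of these regions, the replicate list with the higher q held 2 regions. The q given is that of the better of the 2, so it describes only a part of the combined region.

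Other regions were among the first 101 places of each replicate list. The narrowest of the 20, 18967573 to 18968020, had q 1.05e-58, 2.92e-50 (place 19) and 5.98e-31 (place 65) at a width of 448 bp. At 6240652 to 6241246 the values were 3.38e-57, 3.28e-31 (place 76) and 4.93e-27 (place 101), and at 5049249 to 5050318 they were 5.97e-72, 1.10e-45 (place 25) and 2.46e-30 (place 73). The first and second of these are under 1000 bp wide, and the last measures 1070 bp.

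In the centre, 9074321 to 9076928 had q 1.24e-56, 7.31e-25 and 1.18e-34, and 9342933 to 9344821 had 8.50e-53, 1.11e-23 and 7.78e-25. The regions 10965474 to 10965964 (q 5.90e-50), 10719050 to 10720221 (1.18e-47) and 13082163 to 13083122 (4.00e-47) followed. The last of them had 29183 bp free on its left and a neighbour 2204 bp away on its right.

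The remaining strong regions came in neighbouring pairs. At 11529432 to 11529999 (q 1.59e-46) and 11531863 to 11532780 (9.23e-49), 1863 bp separated 2 regions that both stood between places 115 and 202 of each replicate list. In the right arm, 20274863 to 20275740 (q 1.25e-46) began 288 bp after the end of 20272127 to 20274574. The region 6220807 to 6225362 (q 9.17e-47) is the neighbour of the second strongest.

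Across the 546 regions of V in both lists, the combined q was the lowest of the 3 in 543. Replicate 2 had the lower q of the replicates in 323 and replicate 1 in 223. Scores of the replicate lists had a Spearman's rho of 0.555 and a Pearson's r of 0.719 across these regions, and rho was 0.620 on II, 0.682 on III, 0.672 on IV and 0.684 on X. The regions share libraries and possibly a control, and the lower rho on V was not tested.

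Among regions missing from replicate 1, the strongest was 1803827 to 1806374, of 2548 bp. It had a combined q of 9.70e-53 and q 3.02e-81 in replicate 2, where it stood at place 3. The next were 7803989 to 7804916 (combined q 1.32e-17, replicate 2 q 1.29e-13) and 20575892 to 20576276 (6.89e-13 and 3.75e-11). The first stood far apart from the others. Its replicate 2 q was also lower than its combined q. The best regions missing from replicate 2 were weaker. The best 3 were 5574680 to 5575348 (combined q 1.81e-10), 12876771 to 12877437 (1.97e-10) and 9340226 to 9340662 (8.60e-10). As groups the order was the other way. The median combined q was 4.74e-05 for the 158 regions supported by replicate 1 alone. It was 8.69e-05 for the 322 supported by replicate 2 alone.

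A further 67 members had no combined region. Replicate 1 contributed 15 of its 728 regions on V (2.06%, beside 1.20% over all chromosomes) and replicate 2 52 of 931 (5.59%, beside 5.59%). The member rule turns on a single base pair: the smallest overlap that kept a replicate region out of this group was 1 bp in replicate 1 (10231548 to 10231906, q 7.40e-05) and 2 bp in replicate 2 (10580738 to 10580879, q 0.00133). The closest replicate 2 region without overlap lay 79 bp from a combined region and the closest of replicate 1 lay 278 bp away.

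Of these, 12 were strong and all 12 lay in 1 block near the right end, from 20740660 to 20774524, a stretch with 0 combined regions in the list analysed here. In the block, 7 replicate 1 regions had q-values from 6.08e-116 to 3.97e-08 and 5 replicate 2 regions from 4.22e-152 to 1.57e-17. Each overlapped a region of the other replicate list. The widest, at 20765338 to 20774472 in replicate 2, measured 9135 bp, where replicate 1 had 3216 bp at 20771309 to 20774524. The nearest combined regions ended at 20724727 and began at 20827349. On II, III, IV and X, 0 replicate regions with a q at or below 1e-05 lacked a combined region. Without the block the middle part held 51.2% of the replicate 1 regions on V and 47.0% of those of replicate 2, against 50.7% and 46.7% with it. The block weighed more on broad regions, since it held 6 of the 44 regions of 1000 bp or more of replicate 1 on V (38 without it) and 5 of the 36 of replicate 2 (31 without it).

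The other 55 were weak and thinly supported. In replicate 1 there were 8, with q-values from 0.00153 to 0.00948 and a median width of 117 bp. In replicate 2 there were 47, with q-values from 2.61e-04 to 0.00962 and a median width of 98 bp. None of the 55 overlapped a region of the other replicate list. The best of replicate 1 were at 10231217 to 10231251 (q 0.00153), 11316740 to 11316958 (0.00404) and 9206824 to 9206912 (0.0046). Those of replicate 2 were at 1886242 to 1886285 (2.61e-04), 17549391 to 17549720 (8.45e-04) and 8064581 to 8064599 (0.00129). By position, 7 of the 47 in replicate 2 were in the middle part, 19 in the left and 21 in the right, against 5, 3 and 0 of the 8 in replicate 1.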

How the data were processed

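The authors deposited 3 lists of PeakSeq regions (replicate 1, replicate 2 and both combined), each region with a start, an end and a q-value. Per the file headers, positions follow WormBase build WS190. Not given in the sources used here are the aligner, the PeakSeq settings, the control of each list and how the combined list was made. The highest q-value in any list was 0.00998.

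Overlap meant 1 shared bp. A region was placed in a bin or in 1 of 3 equal parts of a chromosome by its midpoint, and chromosome length was the furthest region end in any list. Shares of V were compared with II, III, IV and X by two-sided Fisher's exact tests and densities by two-sided exact binomial tests. Chromosome I was left out of these comparisons. P-values were adjusted (Benjamini-Hochberg) over the 6 tests against the 4 chromosomes together, over the 4 single chromosomes of each result, and over the 3 tests within V. All intervals cover counting error only. Exact tests treat regions as independent, so p-values are too small where regions cluster. Alternatives were a middle part of 50% of the length, the 50% of regions with the lowest q, lists without regions under 100 bp, merging within 5000 bp, regions in both replicate lists, a reciprocal overlap of 50%, other limits for width and gap, and single replicate lists. The density tests and their alternatives, leaving X out, and leaving out a block of replicate regions were added after the data were seen. Where a combined region overlapped several regions of a list, the lowest q is given.

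The members, lists and tests were chosen with earlier results of these data known. Regions were named by rule: the 20 strongest in both lists, the 10 stretches with most regions (of equal ones, those of longer span), the 5 fullest and emptiest bins, longest gaps and widest regions, the best 3 missing from each replicate, and replicate regions without a combined region (all with q at or below 1e-05 and the best 3 others of each list). Calculations used Python 3.11.15, numpy 2.4.6, pandas 2.3.3, scipy 1.17.1 and matplotlib 3.10.9, and the code was tested on simulated data.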

Additional observations from a re-analysis of the deposited data

How the results depend on the processing

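In 104 of 135 alternatives, direction and call stayed as reported (for counts, within 1.5 times). Of these 104, 37 belonged to the main results and 67 to comparisons with single chromosomes. Among the other alternatives of main results, 7 reversed the direction, 4 moved a count, 2 lost a call and 3 gained a call. A result that did not pass in either setting also counted as kept. Leaving X out cannot change the difference between V and II, III or IV alone. Merging regions within 5000 bp took the middle share of V to 3.00 points above II, III, IV and X (adjusted exact p = 0.222) and to -0.189 points against IV alone. It took the ratio of middle densities to 0.977, and single replicate lists gave ratios of 0.970 to 1.07. The share in both replicate lists on V differed by -3.66 points with a reciprocal overlap of 50% (adjusted exact p = 0.0287) and by -4.84 points among the 50% of regions with the lowest q; there the middle of V exceeded its outer parts by 0.217 points. For broad regions, V against the others ran from -0.578 to 0.278 points in single replicate lists, from -0.901 to 0.330 against II and from -0.0496 to 2.08 against III, and was -1.41 against IV with a limit of 500 bp. Within V, the middle differed from the outer parts by 12.5 points with that limit and by -1.81 to -0.354 points in single replicate lists. Without the block at 20740660 to 20774524, replicate 1 gave -0.249 points within V, -0.495 against the others and 1.30 against III, and replicate 2 gave 0.623 within V. For gaps of 5000 bp or less, V differed from the others by -1.56 points. Dense stretches numbered 1 with a gap limit of 1000 bp, 20 with 3000 bp, and 2 to 6 in single replicate lists. Leaving out a replicate meant using the other deposited list. Stricter rules and shorter lists leave fewer regions; no other cause was tested. No paired analysis was possible because nothing in the lists is given by library, and replicate number 1 alone occurs among both inputs and immunoprecipitations. Depth is unknown, which limits any reading of regions absent from a list.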
